A study of Danio rerio with 16 samples.

Results

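Adaxial cells are the precursors of slow muscle in the zebrafish embryo. They form in the presomitic mesoderm (PSM) as a row of cells on either side of the notochord, which together with the floor plate secretes Hedgehog. Hedgehog activates Gli transcription factors in them, and the myogenic factors Myod1 and Myf5 and the repressor Prdm1a then direct the slow muscle programme. Slow myosin heavy chain 1, encoded by smyhc1, is made once this programme is under way, and the cells later leave the midline and move outward to form the superficial layer of slow fibres.

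The cells described here are those whose class name in the authors' cell table contains the word adaxial. The table has an anterior and a posterior adaxial class, which were kept apart, and 7626 of its 130661 cells belong to them, 3706 to the anterior and 3920 to the posterior class. The authors made these classes from the expression of the same cells. Levels of genes that set adaxial cells apart from other classes are therefore given below as a description, with no test, while comparisons between embryos are tested over libraries.

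The tissue was the zebrafish tail, cut off just behind the last somite that had formed in embryos with 10 to 12 somites. There were 4 groups of 4 libraries. In the DMH1 group the embryos were treated with DMH1, a small molecule that blocks BMP receptor kinases. In the SU5402 group they were treated with SU5402, a small molecule that blocks FGF receptor kinases. The notum-1 group is labelled as Wnt inhibition; Notum, an enzyme that cells secrete, takes a lipid off Wnt proteins that they need for signalling. The fourth group was wild type (WT). For each library 10 tails were pooled (12 in the notum-1 group), so a p-value below measures the spread between pools. Sources used here do not give the strain, the doses, the times of exposure or the way notum-1 was delivered, and no group is labelled as a vehicle control. Among the library names of the cells, SU1 to SU4 matched a labelled sample each and the other 12 showed their group alone.

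Transcripts were counted by their molecular identifiers (UMIs) at their 3′ ends after capture of single cells in droplets. The anterior class held 819 cells in DMH1, 802 in SU5402, 1283 in notum-1 and 802 in WT, and the posterior class held 784, 914, 1129 and 1093 cells in the same order. Summed over the anterior cells of a library there were 773424 to 2216404 UMIs in DMH1, 168452 to 2077877 in SU5402, 1480417 to 2511313 in notum-1 and 698891 to 1162789 in WT. The SU5402 library SU1 stood apart, with 62 anterior and 50 posterior adaxial cells. Cells had been filtered with unlike limits, since the highest mitochondrial percent of a cell reached 6.96 to 7 in DMH1 libraries, 6.99 to 9.99 for SU5402, 2.98 to 3 for notum-1 and 4.53 to 5 for WT. The fewest genes in a cell were 1001 to 1016 in DMH1 libraries and 801 to 1501 in SU5402. They were 501 to 503 in notum-1 and 801 to 1202 in WT. Median UMIs of an anterior cell were 6605 to 8062.5 in DMH1 libraries and 2511 to 8940 in SU5402. In notum-1 they were 4671.5 to 10749 and in WT 3276 to 5734. Of the 7626 adaxial cells, 255 carried a cell barcode that also occurred in another library.

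Of the 3 genes by which adaxial cells are known, all were highest in the anterior class in WT, and myod1 was next highest in the posterior class. Counts were divided by the total UMIs of the class in its library and are given as CPM. For myod1, which encodes a myogenic transcription factor, the WT libraries DJ1, DJ2, MG1 and MG2 had 639, 668, 588 and 648 CPM in anterior cells, 341, 385, 274 and 379 CPM in posterior cells and 63.3, 66.6, 69.4 and 64.2 CPM in PSM. The adaxial classes held the highest levels of myod1 among the 21 classes with at least 20 cells in every WT library. For prdm1a, a repressor that in zebrafish is needed for slow muscle identity, the same libraries had 201, 286, 208 and 207 CPM in anterior cells, 55.7, 67.1, 55.9 and 63.0 CPM in posterior cells and 9.57, 8.38, 10.8 and 8.43 CPM in PSM. The anterior class was the highest for prdm1a, and the posterior class ranked 5 with 60.4 CPM, below differentiated neuronal (117.5 CPM), epidermis 4 (92.6 CPM) and intermediate mesoderm (69.8 CPM) and near dorsal neuronal cells (55.9 CPM).

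The third gene separated the classes. Slow myosin heavy chain smyhc1 had 310, 248, 220 and 252 CPM in anterior cells, against 3.63, 2.49, 4.47 and 4.58 CPM in posterior cells and 3.40, 3.09, 4.52 and 1.3 CPM in PSM. Epidermis 1, a class that should lack smyhc1, held 5.89, 2.45, 5.68 and 5.47 CPM of it in those 4 libraries. The posterior level was thus not above what cells without the gene showed, and no smyhc1 difference in posterior cells is read below. The label thus rests on all 3 genes in the anterior class, and in the posterior class on myod1, with prdm1a above PSM but no higher than in several other classes. The classes were made from these cells, so this is no independent check.

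**Figure D1:**
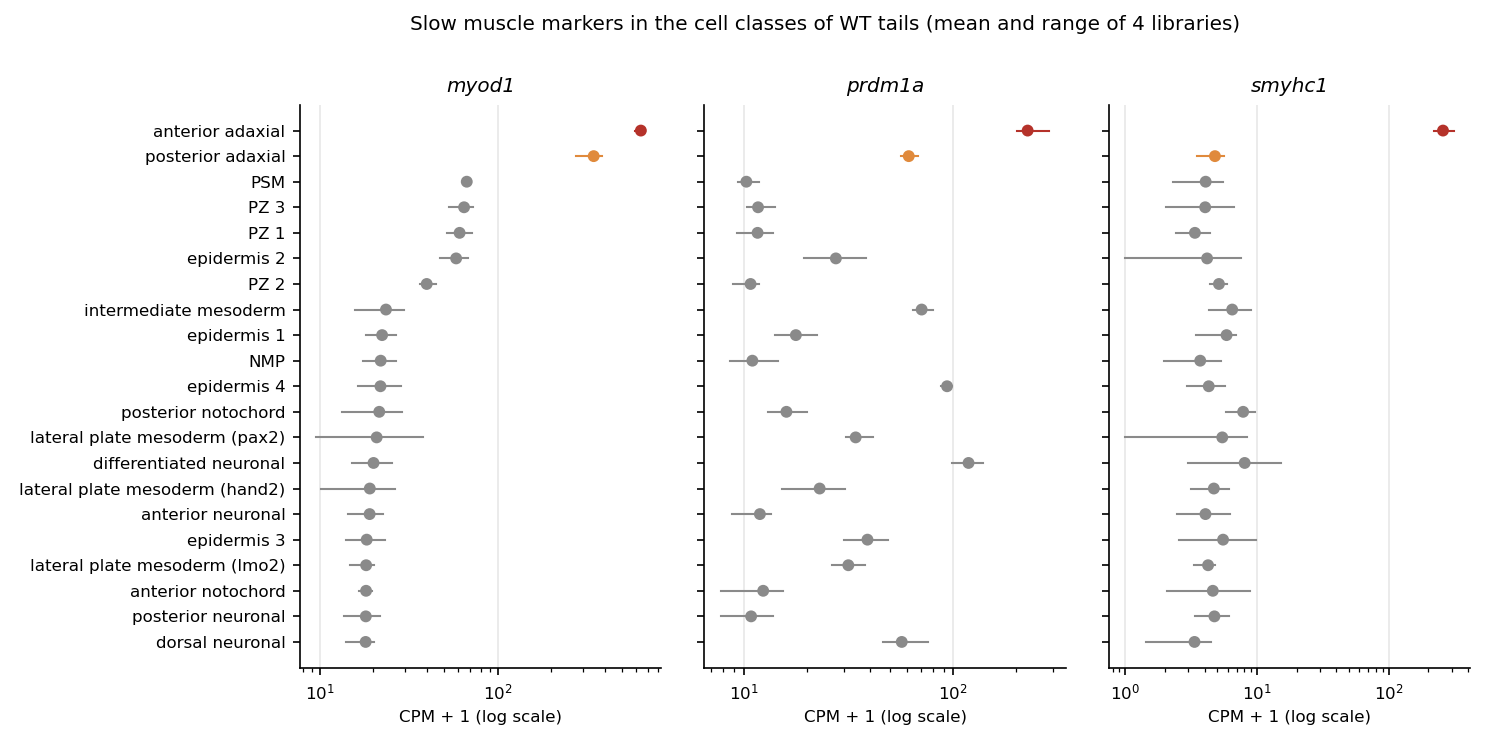
Mean level of myod1, prdm1a and smyhc1 (CPM plus 1, log axis) in the 21 cell classes of the 4 WT libraries, with bars from the lowest to the highest library. The anterior adaxial class was the highest for each gene, and smyhc1 in the posterior adaxial class lay at 3.79 ± 0.97 CPM (SD, n = 4), among the classes that should lack it.

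The largest ratios of anterior adaxial cells to PSM in WT were those of muscle genes. Ratios were taken within each library on CPM plus 1. They were ranked among genes that averaged at least 50 CPM over both classes, with the same sign in all 4 libraries. Counts are of genes that averaged at least 10 CPM over both classes. Of 5655 such genes, 361 (6.38%) were over 2-fold higher in anterior cells in all 4 libraries and 106 (1.87%) were over 2-fold lower in all 4. Of the 23 sarcomere and muscle structure genes at this level, 21 were over 2-fold higher and 0 lower, with a median log2 ratio of 4.60 beside 0.08 over all genes. The thin filament genes tpma (tropomyosin) with 1330 CPM against 17.5 CPM in PSM, acta1a (skeletal alpha-actin) with 1854 against 26.1 CPM and actc1b (alpha-actin) with 770 against 12.9 CPM were among the 12 genes with the largest ratios. Those 12 also held fbxl22, an F-box gene, with a median log2 ratio of 6.46, acta1b with 6.25, myog (myogenin) with 6.2, smyhc1 with 6.04, the troponin genes tnnc2 with 5.81 and tnnt2c with 5.77, and txlnba and aldoab (aldolase A) with 5.61 and 5.60. The slow muscle light chain gene myl10 reached 11240 ± 1671 CPM in anterior cells, against 271 ± 5 CPM in PSM (SD, n = 4).

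Genes that mature muscle carries were still scarce. In WT anterior cells ckma (muscle creatine kinase) had 3.31 CPM and smyhc2, another slow myosin gene, had 2.68 CPM, while the calcium release channel gene ryr1b and the parvalbumin gene pvalb1 were at 0. The intermediate filament gene desma (desmin) was already present, at 187.5 CPM in anterior cells against 2.75 CPM in PSM. Myogenic regulators as a list did not lie apart from other genes, with a median log2 ratio of −0.01 over 14 genes, of which 4 were over 2-fold higher and 2 over 2-fold lower. Within the list, myf5 had 3165 CPM in anterior cells and 1097 CPM in PSM, and the muscle transcription factor gene mef2d had 999.3 and 106.3 CPM.

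Genes lower in anterior cells than in PSM included somite regulators and cell cycle genes. The somite regulators dmrt2a, tcf15 and meox1 had median log2 ratios of −3.31, −2.74 and −2.50, and the segment polarity gene mespba had −1.92. Levels of tcf15 were 213.7 ± 32.1 CPM in anterior adaxial cells and 1495 ± 110 CPM in PSM. Of 31 G2/M genes, 17 were over 2-fold lower in all 4 libraries and 0 were over 2-fold higher, with a median log2 ratio of −1.47, and ube2c, which drives mitotic exit, had 75.5 CPM against 305.2 CPM in PSM. Of 28 S phase genes, 10 were over 2-fold lower and 0 higher, with a median of −1.17. The cyclin-dependent kinase inhibitor gene cdkn1ca ran the other way, with 1107 CPM in anterior cells, 720.9 CPM in posterior cells and 131.2 CPM in PSM. Its list, genes of cell cycle exit, had a median log2 ratio of 0.06 over 12 genes in anterior cells. Of these, 2 were over 2-fold higher and 1 over 2-fold lower, where 6.38% and 1.87% of all genes were.

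The deposited cell cycle calls gave the same order. In WT, 92.91 to 98.54% of anterior adaxial cells per library were called G1, as were 86.12 to 92.53% of posterior cells and 34.34 to 38.07% of PSM cells. The G1 share of anterior cells in the treated groups overlapped WT, with 91.25 to 97.3% for DMH1, 91.67 to 98.39% for SU5402 and 93.98 to 96.1% for notum-1. Such calls depend on depth and on free RNA, and they were not recomputed.

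Posterior adaxial cells had higher levels of several tailbud genes than PSM. Of 5502 genes with at least 10 CPM, 146 (2.65%) were over 2-fold higher than in PSM in all 4 WT libraries and 93 (1.69%) over 2-fold lower. Of 17 Wnt response genes, 9 were over 2-fold higher and 1 over 2-fold lower, with a median log2 ratio of 1.14 beside 0.06 over all genes. Tailbud genes of the presomitic programme were high: msgn1, a transcription factor gene of early mesoderm, had 5187 ± 590 CPM in posterior cells and 890 ± 162 CPM in PSM, and tbx16 had 939.2 and 188.6 CPM. Of 12 BMP response genes, 5 were over 2-fold higher and 0 lower, and the ventral repressor genes ved and vent had 417.1 and 162.7 CPM, against 35.3 and 24.2 CPM in PSM. The Notch targets her15.1.1 and her15.1 and the retinoid enzyme genes dhrs3b and lratb.1 were among the 12 highest with at least 50 CPM as well. Their median log2 ratios were 3.23, 3.01, 3.53 and 2.65.

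Several genes of somite boundary formation were low in posterior cells. The segment polarity genes mespba and mespbb had median log2 ratios to PSM of −5.08 and −4.62, and mespab, ripply2 and ripply1, the last 2 repressors that end presomitic gene expression, had −3.56, −3.44 and −2.85. Sarcomere genes were mostly near the PSM level, with 1 of 14 over 2-fold higher. Slow muscle genes were partly on: prdm1a and myl10 were the 2 of 3 over 2-fold higher, and myl10 had 798 ± 122 CPM.

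**Figure D2:**
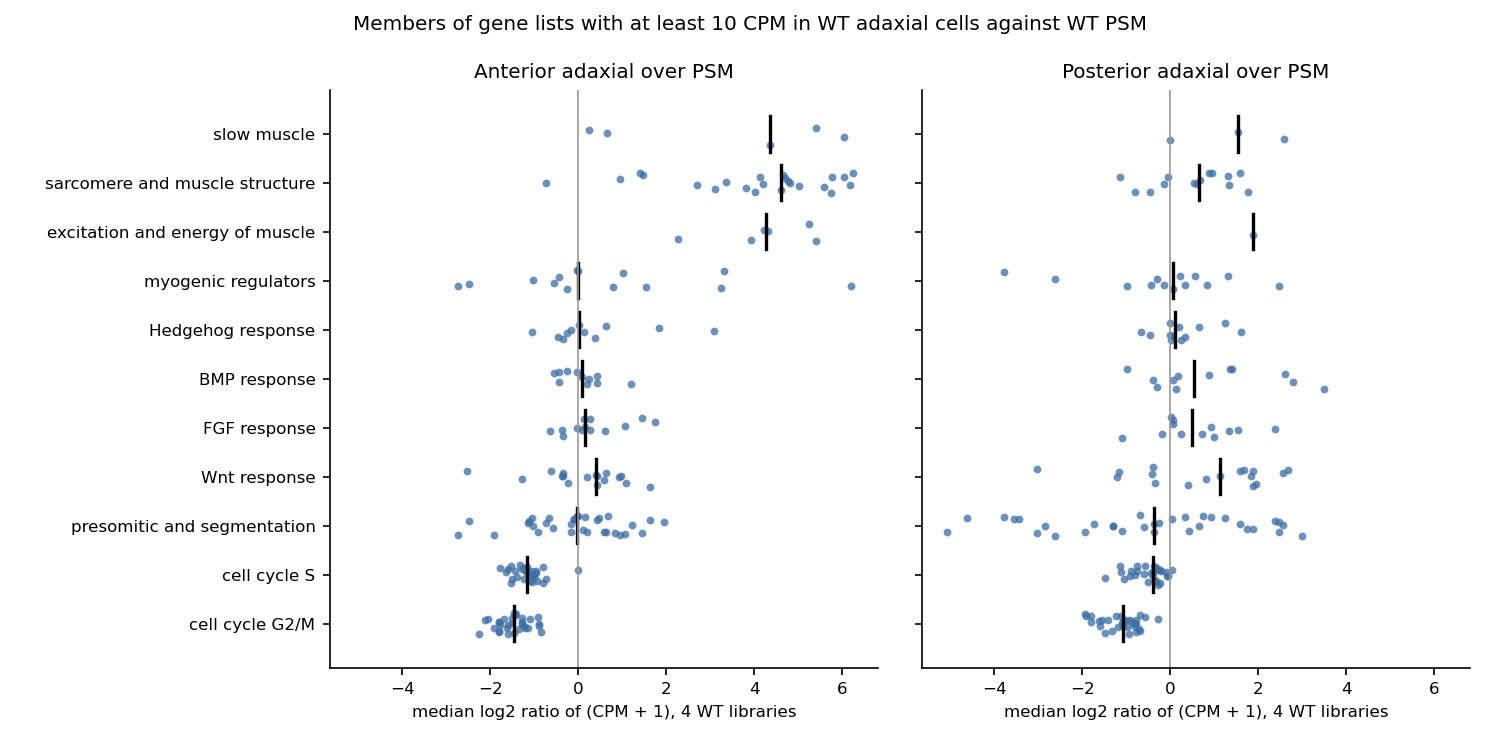
Median log2 ratio over 4 WT libraries of CPM plus 1 in anterior adaxial cells to PSM and in posterior adaxial cells to PSM, 1 point for each gene with at least 10 CPM in 11 gene lists, bars at each list's median. Sarcomere genes lay far above 0 in anterior cells, with a median of 4.60, and near 0.65 in posterior cells, while Wnt response genes lay higher in posterior cells, with medians of 0.40 and 1.14.

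Set directly against each other in WT, the classes differed along the same axis. Of 5688 genes with at least 10 CPM, 265 (4.66%) were over 2-fold higher in anterior than in posterior cells in all 4 libraries and 49 (0.861%) over 2-fold lower. Ranks were again taken among genes with at least 50 CPM over both classes. The largest ratios there were those of fbxl22 (log2 6.61), acta1b (6.34), the myosin light chain gene myl13 (6.31), actc1b (6.16), myog (5.99) and smyhc1 (5.79). The lowest there were vox (−3.08), ved (−2.59) and vent (−2.46), ventral homeobox repressors, and the Notch target her4.1 (−2.13).

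Hedgehog response was uneven among its genes. In WT, hhip, which binds Hedgehog at the cell surface and limits it, had 225.1 ± 27.0 CPM in anterior cells, 84.6 ± 21.7 CPM in posterior cells and 25.4 ± 3.3 CPM in PSM. The Hedgehog target and effector gli1 had 75.8 ± 10.6 CPM in anterior, 52.1 ± 2.9 CPM in posterior and 21.6 ± 2.8 CPM in PSM cells. These were the genes that moved, as the list's median log2 ratio was 0.01 over 11 genes in anterior cells and 0.12 over 12 genes in posterior cells, with 2 over 2-fold higher and 0 lower in each. The co-receptor gene gas1a had 157.8, 139.4 and 213.9 CPM in anterior, posterior and PSM cells. Hedgehog ligand genes summed to 5.49 CPM in anterior, 5.07 CPM in posterior and 4.51 CPM in PSM cells.

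Markers of neighbouring tissues were looked up in the same WT sums. Notochord markers together had 1038 CPM in anterior adaxial cells, 371.6 in posterior cells and 208.4 in PSM. The defining notochord gene noto was not part of that rise, with a median of 11.8 CPM after the scaling described below in anterior cells and 11.4 in PSM. Epidermis markers summed to 1240, 1300 and 1078 CPM, neural markers to 1011, 1493 and 893.3 CPM and blood and endothelium markers to 117.8, 125.6 and 118.2 CPM. The neural crest gene sox10 was at 0 in the adaxial cells of all 16 libraries. The other defining neural crest gene, foxd3, was present in WT. After the same scaling it ran from 6.76 to 22.6 CPM in anterior, 18.8 to 41.8 in posterior and 5.98 to 14.1 in PSM cells. Neural crest markers together ran from 94.7 to 129.9, 65.3 to 95 and 98.2 to 107.4 scaled CPM in the same order. The part that cells or RNA of other classes play in the WT ratios was not tested.

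Anterior cells of WT were also split by whether they held smyhc1. After each cell was thinned to 2000 UMIs, 40, 50, 25 and 43 cells of the WT libraries DJ1, DJ2, MG1 and MG2 held a smyhc1 UMI and 150, 213, 116 and 162 held none. Cells with smyhc1 had more of other late muscle genes, among them srl (sarcalumenin) with 206.9 against 10.2 CPM, myl13 with 1741 against 102.7 CPM, acta1b with 943.7 against 58.8 CPM, tnnt2c with 1136 against 121.9 CPM and the Z-disc gene ldb3a with 386.4 against 51.5 CPM. Regulators differed less: myog had 425 CPM with smyhc1 and 94.8 CPM without, prdm1a 371.5 and 187.9 CPM, myod1 907.9 and 565.8 CPM and myf5 3402 and 3102 CPM. Cells with smyhc1 had less meox1, with 92.5 against 392.7 CPM, less tcf15, with 68.0 against 251.6 CPM, and less msgn1, with 1668 against 3131 CPM. Hedgehog genes did not follow, with hhip at 217.2 CPM with smyhc1 and 227.2 CPM without, and gli1 with log2 ratios from −0.17 to 1.02. A cell with a smyhc1 UMI was chosen by a measured value, so these figures describe the class and carry no test.

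Treatments were first compared by how many adaxial cells each library held. Anterior cells were 3.86, 4.21, 4.51 and 4.09% of all cells in notum-1 libraries, against 2.18, 2.27, 2.03 and 2.81% in WT. The groups did not overlap, and the difference was 1.84 percentage points (two-sided exact permutation p = 0.0286, the smallest that 4 against 4 libraries allow; 0.0857 after adjustment over 9 comparisons). Anterior cells were 2.55 ± 0.56% in DMH1, 2.26 ± 0.68% in SU5402 and 2.32 ± 0.34% in WT (SD, n = 4 each), and the DMH1 and SU5402 differences of 0.23 and −0.06 percentage points were within the spread between libraries (exact permutation, adjusted p = 0.579 and 0.914). Posterior cells were 2.46 ± 0.35% in DMH1, 2.44 ± 1.07% in SU5402, 3.68 ± 0.29% in notum-1 and 3.25 ± 0.65% in WT (SD, n = 4 each), with adjusted exact permutation p of 0.193, 0.404 and 0.404. A limit of at least 1000 genes and at most 5% mitochondrial UMIs was also tried. With it the posterior differences from WT were −1.37 points for DMH1 and −1.58 for SU5402 (adjusted exact permutation p = 0.0429 for each). This limit took cells unevenly. Of posterior cells it kept 134 of 193, 33 of 127, 129 of 226 and 165 of 238 in DMH1. In SU5402 it kept 3 of 50, 41 of 160, 271 of 463 and 156 of 241. In WT it kept 213 of 232, 310 of 317, 263 of 263 and 215 of 281. The part of this loss in the differences was not tested.

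The anterior share of adaxial cells was above WT in every DMH1 and notum-1 library, with neither difference past the threshold after adjustment. Of adaxial cells, 52.8, 46.6, 51.5 and 51.4% were anterior in DMH1 and 53.7, 53.9, 54.7 and 50.4% in notum-1, against 45.2, 45.4, 34.9 and 42.3% in WT. Neither group overlapped WT, and the differences were 8.65 and 11.2 percentage points (exact permutation p = 0.0286 for each, 0.0857 adjusted). In SU5402 the shares were 55.4, 52.0, 43.1 and 47.3%, with a difference of 7.48 points (exact permutation p = 0.114, 0.206 adjusted). Limits on cells bear on these shares. With at least 1500 genes and at most 3% mitochondrial UMIs the DMH1 difference was −11.4 points and did not pass. This value rests on few cells. That limit left 9, 1, 9 and 24 anterior and 23, 3, 14 and 22 posterior cells in DMH1. In WT it left 6, 24, 61 and 10 anterior and 10, 16, 83 and 10 posterior cells. With the 1000-gene limit the anterior share of all cells differed from WT by −0.58 points for DMH1, −0.90 for SU5402 and 2.07 for notum-1, and the adjusted exact permutation p was 0.0429 for the SU5402 and the notum-1 difference.

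**Figure D3:**
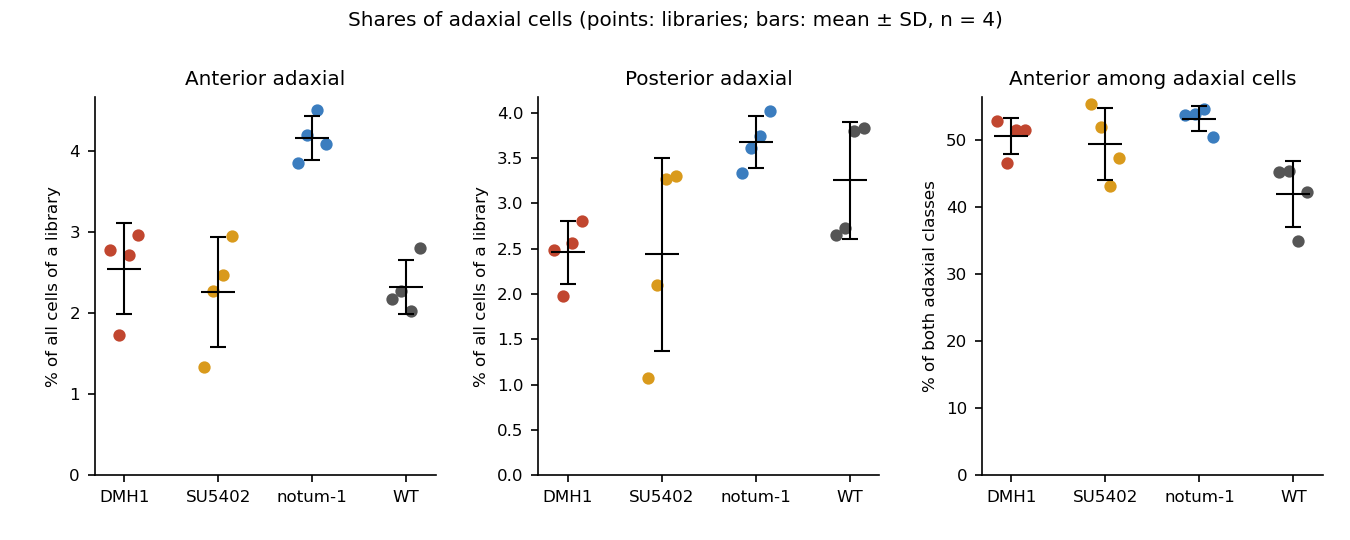
Adaxial cells as percent of all cells of a library (anterior, left, and posterior, middle) and anterior cells as percent of adaxial cells (right), 1 point for each library with mean and SD. The 4 notum-1 libraries hold 3.86 to 4.51% anterior cells, above the WT libraries at 2.03 to 2.81%, and the DMH1 and notum-1 libraries lie above WT in the anterior share of adaxial cells.

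Gene levels were then compared with edgeR's quasi-likelihood test on the UMI sums of each class and library, with p-values adjusted by Benjamini-Hochberg over all genes tested. Levels are given as scaled CPM, CPM divided by edgeR's TMM factor. Changes are log2 fold changes, treated over WT, and a gene is said to have risen or fallen where the adjusted p is under 0.05. Many genes changed. Of 7739 genes tested in anterior cells, 2457 (31.7%) changed under DMH1, 2439 (31.5%) under SU5402 and 1851 (23.9%) under notum-1, and of 7277 in posterior cells 2406 (33.1%), 2594 (35.6%) and 1892 (26.0%) did. By direction, 15.8% of genes rose and 16.0% fell under DMH1 in anterior cells, 15.3 and 16.2% under SU5402, and 14.4 and 9.55% under notum-1, and in posterior cells the pairs were 16.2 and 16.8%, 18.3 and 17.4%, and 15.4 and 10.6%. In PSM the shares were 44.3, 40.9 and 35.6% of 9647 genes. The comparisons share the WT libraries. A lower level in a sum of cells can mean fewer cells with the transcript or less of it per cell, which cannot be told apart here.

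Heat shock and oxygen response genes differed along with the groups. The heat shock gene hsp70l had 23.1, 28.5, 6.73 and 4.72 scaled CPM in DMH1 and 0, 3.22, 16.5 and 9.59 in SU5402 anterior cells, against 432, 320, 417 and 464 in WT. It was 537, 128, 407 and 125 scaled CPM in notum-1. Near-identical hsp70 copies can share reads, so this count is uncertain as to the copy. Of 17 heat shock genes tested in anterior cells, 7 fell and 3 rose in DMH1, 8 fell and 2 rose in SU5402, and 1 fell and 5 rose in notum-1. Over all genes tested there, 16.0% fell and 15.8% rose in DMH1, 16.2 and 15.3% in SU5402, and 9.55 and 14.4% in notum-1. The oxygen-regulated gene ldha had 113, 115, 217 and 178 scaled CPM in DMH1 and 241, 183, 174 and 175 in SU5402 anterior cells, against 3.77, 10.5, 9.63 and 5.41 in WT. Of 20 oxygen response and glycolysis genes, 11 rose and 2 fell in DMH1 and 11 rose and 1 fell in SU5402, against 1 and 2 in notum-1. Epidermis markers together were most uneven among SU5402 libraries. In anterior cells the lowest SU5402 library held 227.3 scaled CPM of them and the highest 3789. The WT extremes were 662.8 and 1709, those of DMH1 754.1 and 1365, and those of notum-1 241.2 and 856.5. The neural marker sox2 spanned 14.15 to 69.65 scaled CPM in SU5402 anterior cells, beside 6.76 to 14.97 in WT. The part of these states and markers in the results that follow was not tested.

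The slow muscle repressor prdm1a was highest in SU5402. Its scaled CPM in anterior cells were 280, 288, 295 and 286 in DMH1, 311, 384, 415 and 389 in SU5402, 239, 149, 226 and 171 in notum-1 and 191, 269, 193 and 196 in WT. All 4 SU5402 libraries and all 4 DMH1 libraries exceeded WT, while notum-1 overlapped it. Relative to WT it rose by 0.83 on the log2 scale in SU5402 (edgeR adjusted p = 3.76e-04, SE 0.16) and by 0.43 in DMH1 (adjusted p = 0.0405, SE 0.16), with a value of −0.11 (adjusted p = 0.642) in notum-1. The DMH1 call was lost with library totals, with no filter and with the 1000-gene limit (0.38, 0.45 and 0.41, adjusted p = 0.0622, 0.0797 and 0.0648). It was also lost on leaving out any of 7 of the 8 libraries, WT DJ2 being the exception, with fold changes from 0.38 (without WT DJ1, adjusted p = 0.119) to 0.45.

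In posterior cells prdm1a had 77.2, 74.5, 116 and 90.7 scaled CPM in DMH1, 118, 125, 192 and 130 in SU5402, 68.6, 42.6, 110 and 70.4 in notum-1 and 53.3, 63.8, 53.2 and 60.8 in WT. DMH1 and SU5402 again did not overlap WT. The change was 1.33 (SE 0.22, edgeR adjusted p = 3.61e-05) in SU5402, 0.64 (SE 0.22, adjusted p = 0.0232) in DMH1 and 0.32 (adjusted p = 0.307) in notum-1. Without library DMH3 the DMH1 value was 0.51 (adjusted p = 0.102), and without WT DJ1 or WT MG1 it was 0.61 in either case (adjusted p = 0.063 and 0.0649). With the 1000-gene limit it was 0.66 (adjusted p = 0.0512).

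Counted by cell, the order was alike. Here and below, cells were thinned to equal totals with no TMM factor. Such shares are therefore nearer to library totals than to scaled CPM. At 2000 UMIs a cell, 56.5 ± 5.0% of anterior cells held a prdm1a UMI in SU5402, 41.1 ± 4.9% in DMH1, 23.1 ± 5.2% in notum-1 and 32.7 ± 4.6% in WT (SD, n = 4 each). The exact permutation p was 0.0286 for SU5402 and notum-1 and 0.0571 for DMH1, adjusted over 9 to 0.0514, 0.0514 and 0.0857. In epidermis 1 the median share with prdm1a was 2.33 to 4.33% in the groups. In notum-1 the call for prdm1a rests on the scaling: with library totals in place of TMM its fold change in anterior cells was −0.62 (edgeR adjusted p = 0.00284), and in posterior cells its sign turned, to −0.17 (adjusted p = 0.537).

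The level of myod1 rose in SU5402 anterior cells. It had 562, 481, 565 and 609 scaled CPM in DMH1, 933, 891, 819 and 665 in SU5402, 642, 467, 560 and 591 in notum-1 and 605, 627, 543 and 613 in WT. SU5402 lay above WT in all 4 libraries, and the other groups overlapped WT. The change was 0.46 (SE 0.15, edgeR adjusted p = 0.0207) in SU5402, −0.11 (adjusted p = 0.621) in DMH1 and −0.08 (adjusted p = 0.734) in notum-1. The SU5402 value was 0.42 without SU2 and without WT MG1 (adjusted p = 0.0545 and 0.0706), 0.44 (adjusted p = 0.101) with no filter, and 0.28 (adjusted p = 0.245) with cells of at least 1000 genes and at most 5% mitochondrial UMIs. With library totals the notum-1 value was −0.58 and passed (adjusted p = 0.00718). The share of anterior cells with a myod1 UMI was 60.6 ± 3.9% in DMH1, 77.4 ± 6.2% in SU5402, 50.4 ± 5.4% in notum-1 and 64.6 ± 2.2% in WT (SD, n = 4 each; exact permutation, adjusted p = 0.22, 0.0514 and 0.0514). In posterior cells no treatment passed the threshold for myod1, with changes of 0.21, 0.43 and 0.30 in DMH1, SU5402 and notum-1 (edgeR adjusted p = 0.407, 0.0795 and 0.243). The SU5402 value passed without SU4 (0.66, adjusted p = 0.00303), with library totals (0.55, 0.0244), without cells over 2 times the median UMIs (0.51, 0.044) and with sums thinned to a common depth (0.99, 3.13e-04). Thinned sums gave 0.70 in DMH1 (adjusted p = 0.0135), and with library totals the notum-1 value was −0.18 (adjusted p = 0.457).

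The slow myosin smyhc1 rose in notum-1. Anterior cells had 316, 410, 276 and 352 scaled CPM in DMH1, 251, 204, 146 and 381 in SU5402, 731, 425, 777 and 616 in notum-1 and 294, 232, 203 and 238 in WT. The notum-1 libraries lay above WT without overlap, and DMH1 and SU5402 overlapped WT. The change was 1.40 (SE 0.23, edgeR adjusted p = 1.97e-04) in notum-1, 0.48 (SE 0.23, adjusted p = 0.114) in DMH1 and 0.03 (SE 0.24, adjusted p = 0.938) in SU5402. The DMH1 value passed when the 8 libraries compared were fitted alone (0.50, adjusted p = 0.00103) and with no filter (0.50, adjusted p = 0.0453), and was −0.25 (adjusted p = 0.655) with the 1000-gene limit. A smyhc1 UMI was found in 21.6 ± 2.9% of anterior cells in DMH1, 21.3 ± 10.1% in SU5402, 34.2 ± 5.7% in notum-1 and 19.7 ± 1.6% in WT (SD, n = 4 each), with exact permutation p of 0.0286 for notum-1, 0.0514 adjusted. The SU5402 libraries ranged from 8.83% in SU3 to 33.3% in SU1.

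Other slow muscle genes were mixed. Of 10 tested in anterior cells, 4 rose and 0 fell in notum-1, where 14.4% of all genes rose: smyhc1, smyhc2, six4a and six1a, the last 2 homeobox genes of muscle precursors. The slow myosin gene smyhc2 had 13.4, 20.8, 15.5 and 23.3 scaled CPM in notum-1, against 2.51, 1.61, 3.21 and 2.71 in WT, a change of 2.85 (SE 0.46, edgeR adjusted p = 9.39e-05). The change of six4a was 0.69 (adjusted p = 0.0063) and fell to 0.20 (adjusted p = 0.407) with library totals, and six1a, at 1.51, lost the call with library totals (0.98, adjusted p = 0.11) and without any of WNT_DJ1, WNT_MG1, WT DJ1, WT DJ2 and WT MG1, with 1.09 (adjusted p = 0.145) without WNT_DJ1. In DMH1, prdm1a, smyhc2 and six4a rose and myl10, six1b and six4b fell, and in SU5402 prdm1a rose and myl10 and six1b fell. With the 1000-gene limit smyhc2 in DMH1 was 1.24, against 1.75 without it, and did not pass (adjusted p = 0.0965). The call of six4a in DMH1, with a change of 0.48, was lost without any 1 of 6 libraries (all but DMH0 and DMH2). Without DMH3 it was 0.40 (edgeR adjusted p = 0.137). The six4a call was also lost with library totals, DESeq2, no filter and thinned sums (0.43 to 0.71). That of six4b was lost without DMH3 or WT MG2 (−1.09 and −1.13). The six1b call in SU5402 was lost without any 1 of 7 (all but SU4), with −0.70 (edgeR adjusted p = 0.244) without SU3. It was also lost with library totals, DESeq2, no filter, the 1000-gene limit and without cells over 2 times the median UMIs (−1.01 to −1.26).

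The light chain gene myl10 fell in DMH1 and SU5402. In anterior cells it had 7200, 6090, 5480 and 7320 scaled CPM in DMH1, 4080, 4330, 4900 and 6180 in SU5402, 13000, 18000, 11300 and 18600 in notum-1 and 12100, 11700, 8460 and 10000 in WT. DMH1 and SU5402 lay below WT in all libraries, and notum-1 overlapped WT from above. It changed by −0.69 (SE 0.20, edgeR adjusted p = 0.00978) in DMH1, −1.11 (SE 0.20, adjusted p = 1.75e-04) in SU5402 and 0.53 (SE 0.20, adjusted p = 0.0545) in notum-1. In posterior cells it fell by 1.2 in DMH1 and by 1.03 in SU5402 on the log2 scale (adjusted p = 2.34e-04 and 9.72e-04), and the notum-1 value was 0.43 (adjusted p = 0.151).

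**Figure D4:**
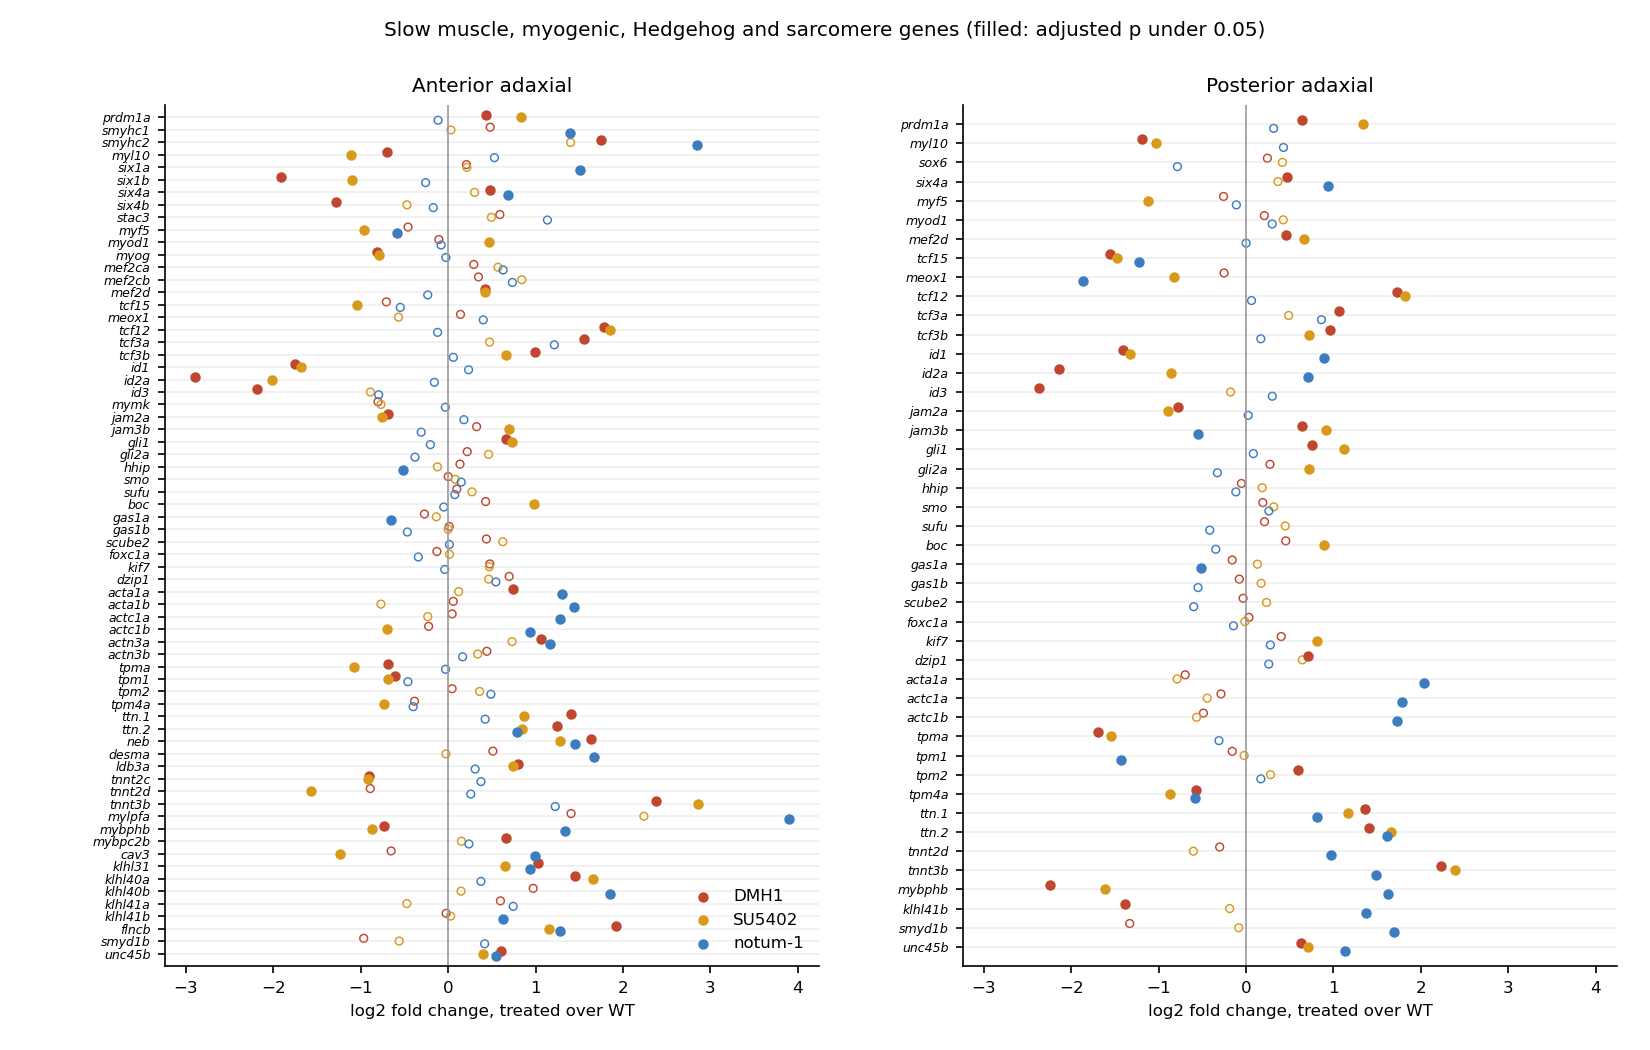
Log2 fold changes, treated over WT, of slow muscle, myogenic, Hedgehog response and sarcomere genes with at least 10 scaled CPM in anterior (left) and posterior (right) adaxial cells for DMH1, SU5402 and notum-1, filled where the edgeR adjusted p was under 0.05. In anterior cells prdm1a lies at 0.43, 0.83 and −0.11 and myl10 at −0.69, −1.11 and 0.53.

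Muscle structure genes moved upward in notum-1. Of 30 sarcomere genes tested in anterior cells, 16 rose and 0 fell, with a median change of 0.76 beside 0.01 over all genes, where 14.4% of genes rose and 9.55% fell. Skeletal actin acta1a had 4540, 4530, 4480 and 3640 scaled CPM in notum-1, against 1840, 1720, 1710 and 1690 in WT. The groups lay far apart, with a change of 1.3 (SE 0.17, edgeR adjusted p = 7.24e-06). Desmin gene desma had 643, 533, 532 and 527 scaled CPM in notum-1, against 198, 184, 153 and 169 in WT, and rose by 1.67 (SE 0.20, adjusted p = 5.11e-06). The myosin-binding protein gene mybphb had 870, 724, 704 and 908 scaled CPM in notum-1, against 325, 295, 298 and 346 in WT, a rise of 1.34 (SE 0.16, adjusted p = 2.94e-06).

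Posterior cells showed the rise from a low base. Of 17 sarcomere genes tested, 12 rose and 2 fell in notum-1, with a median of 1.37, where 15.4% of all genes rose and 10.6% fell. There acta1a had 341, 150, 371 and 117 scaled CPM in notum-1, against 59.1, 49.6, 51.8 and 79.6 in WT, a rise of 2.04 on the log2 scale (edgeR adjusted p = 0.00199, SE 0.39), and mybphb had 158, 118, 167 and 178, against 54.5, 47.3, 38.3 and 63.1 in WT (1.63, SE 0.20, adjusted p = 1.1e-06). In the myosin chaperone gene unc45b the rise was 1.13 (adjusted p = 5.45e-06) in posterior and 0.55 (adjusted p = 0.00905) in anterior cells. The alpha-actin gene actc1a varied among libraries, with 3350, 8500, 2810 and 5820 scaled CPM in notum-1 anterior cells, against 2360, 2000, 2200 and 1860 in WT (change 1.28, adjusted p = 0.00217). In the same libraries notum1a itself had 158, 473, 168 and 381 scaled CPM in notum-1, against 0, 0, 0 and 1.35 in WT.

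Scaling matters for the size of the notum-1 rises. With library totals in place of TMM, the median change over all genes in anterior cells was −0.49 and 309 genes rose while 2737 fell, against 1112 and 739 with TMM, and in posterior cells 336 rose and 2627 fell, against 1123 and 769. Under that scaling the changes in anterior cells were 0.82 for actc1a (edgeR adjusted p = 0.0558) and 0.05 for unc45b (adjusted p = 0.791), while acta1a, desma, mybphb, smyhc1 and smyhc2 stayed past the threshold.

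A few genes of contractile function beyond the thin filament rose as well. Of 14 excitation and energy genes tested in notum-1 anterior cells, 5 rose and 0 fell, where 14.4% of all genes rose and 9.55% fell. Among the 5 was ckma, with 17.3, 20.8, 13.6 and 39.4 scaled CPM in notum-1, against 0, 4.03, 4.28 and 4.06 in WT. The fast muscle light chain gene mylpfa had 59.6, 15.3, 116 and 40.2 scaled CPM in notum-1, against 6.28, 4.03, 3.21 and 1.35 in WT. Beside these, fast muscle markers together ran from 151.8 to 354.5 scaled CPM in notum-1 anterior cells and from 108 to 174.2 in WT, and notochord markers from 576.4 to 787 in notum-1 and from 794.6 to 1082 in WT. Their part in the result was not tested.

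The sarcomere list was divided in DMH1 and SU5402. In anterior cells 12 of 30 genes rose and 4 fell in DMH1, where 15.8% of all genes rose and 16.0% fell, and 9 rose and 8 fell in SU5402, where 15.3% rose and 16.2% fell. The giant sarcomere protein gene ttn.1 (titin) had 2290, 2360, 2460 and 2580 scaled CPM in DMH1 and 1120, 1210, 1770 and 2500 in SU5402, against 970, 1040, 765 and 881 in WT. It rose by 1.41 (SE 0.20, edgeR adjusted p = 1.16e-05) in DMH1 and by 0.86 (SE 0.20, adjusted p = 0.00193) in SU5402. In the same cells tpma had 762, 834, 630 and 882 scaled CPM in DMH1 and 594, 687, 459 and 641 in SU5402, against 1290, 1340, 1110 and 1260 in WT. This was a fall of 0.69 on the log2 scale (adjusted p = 0.00169) in DMH1, with a fold change of −1.07 (adjusted p = 2e-05) in SU5402. Actin acta1a rose in DMH1 (0.74, adjusted p = 0.00117) and did not pass in SU5402 (0.12, adjusted p = 0.614). The DMH1 value was 0.45 (adjusted p = 0.0675) with the 1000-gene limit and −0.056 (adjusted p = 0.958) with the 1500-gene limit. Fast muscle markers together ran from 203.6 to 270.9 scaled CPM in DMH1, above WT without overlap, and from 160.3 to 265.6 in SU5402, against 108 to 174.2 in WT, and their part in the result was not tested.

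The same split held in posterior cells, where ttn.1 rose by 1.36 in DMH1 and 1.17 in SU5402 and tpma fell by 1.70 and 1.54 on the log2 scale, overlapping WT in SU5402. For mybphb the effect of DMH1 differed between the classes. Its level was 173, 200, 166 and 224 scaled CPM in DMH1 anterior cells, against 325, 295, 298 and 346 in WT, and 7.91, 8.84, 9.55 and 14.4 in DMH1 posterior cells, against 54.5, 47.3, 38.3 and 63.1 in WT. The log2 fold changes were −0.73 in anterior and −2.25 in posterior cells. The difference of 1.49 passed the test of class by treatment (edgeR adjusted p = 3.8e-08). Differences between anterior and posterior cells, here and below, were not refitted with thinned sums or with a library left out. Nor were they refitted without the term that pairs the classes of a library.

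**Figure D5:**
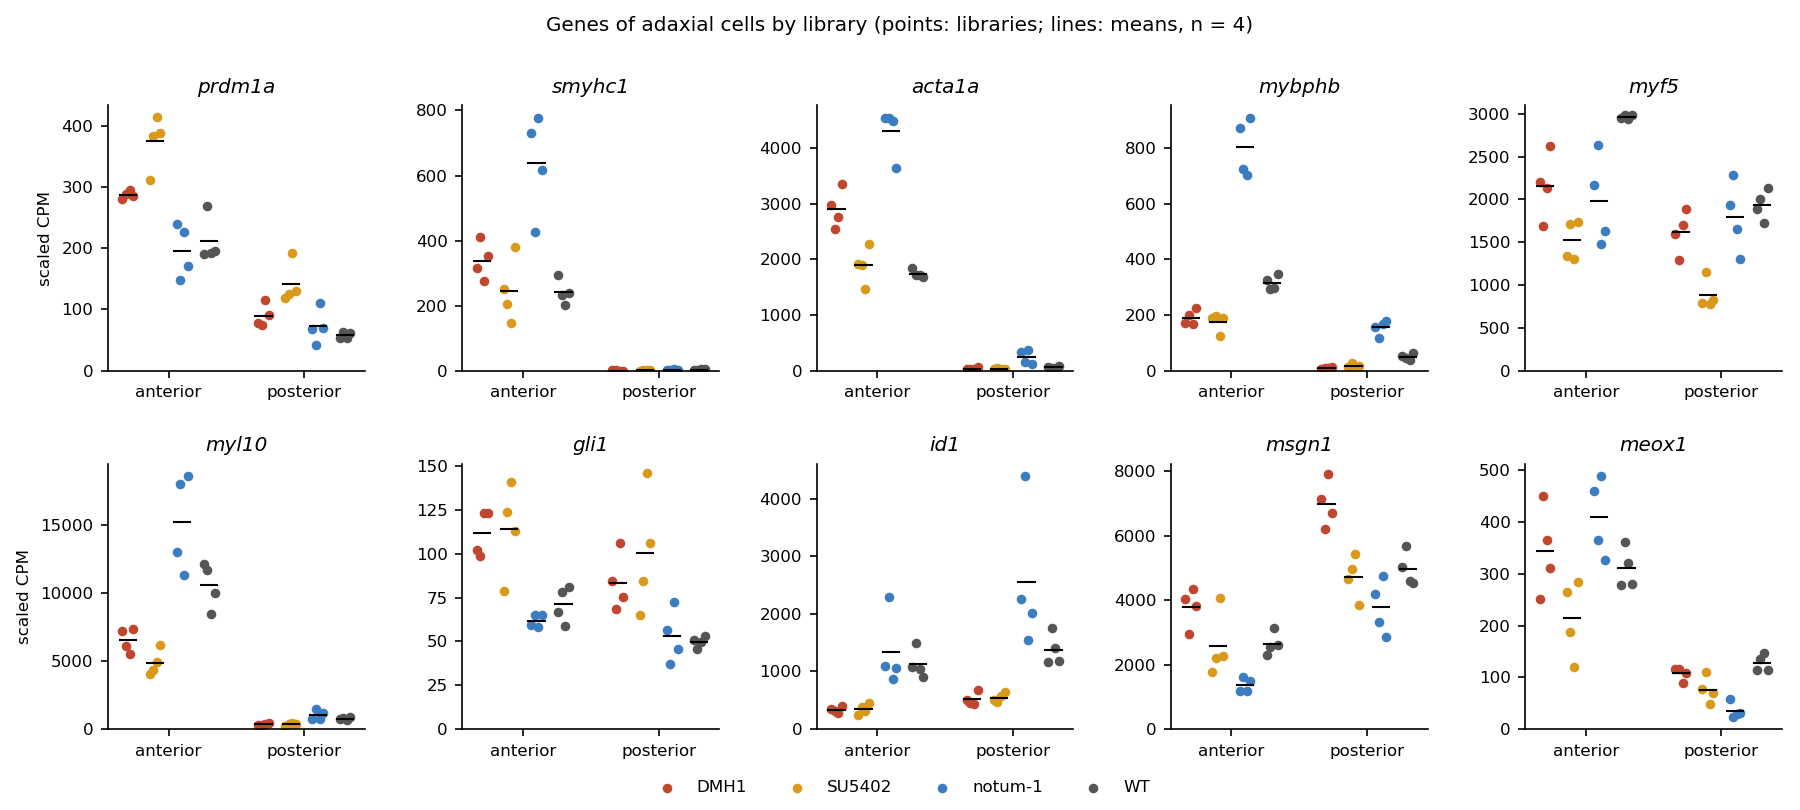
Scaled CPM of 10 genes in every library, in anterior (left in each panel) and posterior adaxial cells, for DMH1, SU5402, notum-1 and WT. The notum-1 libraries lie above WT for smyhc1, acta1a and mybphb in anterior cells, and the SU5402 libraries lie below WT for myf5 in both classes.

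Among myogenic regulators, myf5 fell in SU5402. It had 2200, 1690, 2130 and 2620 scaled CPM in DMH1, 1340, 1710, 1300 and 1740 in SU5402, 2170, 2640, 1480 and 1630 in notum-1 and 2950, 2990, 2940 and 2990 in WT anterior cells. The WT libraries were close together, and the 12 treated libraries lay below them. The change was −0.96 (SE 0.19, edgeR adjusted p = 3.53e-04) in SU5402, −0.46 (SE 0.19, adjusted p = 0.0583) in DMH1 and −0.59 (SE 0.19, adjusted p = 0.0224) in notum-1. The notum-1 call was lost without any of WNT_MG1, WNT_MG2, WT DJ1, WT DJ2 and WT MG2, with the smallest value, −0.47 (adjusted p = 0.0783), without WNT_MG1. In posterior cells myf5 had 792, 1150, 784 and 826 scaled CPM in SU5402, against 1890, 2000, 1730 and 2130 in WT, with a change of −1.12 (SE 0.18, adjusted p = 2.96e-05), and DMH1 and notum-1 did not pass (−0.26 and −0.11).

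Relative to PSM, myf5 was lower in anterior cells in all 3 groups than in WT. In PSM it had 1370, 994, 1250 and 1520 scaled CPM in DMH1, 742, 972, 846 and 997 in SU5402, 934, 1320, 754 and 641 in notum-1 and 997, 1150, 1020 and 956 in WT. The class by treatment difference, the log2 fold change in adaxial cells minus that in PSM, was −0.77 under DMH1, −0.80 under SU5402 and −0.37 under notum-1 for anterior cells (edgeR adjusted p = 1.03e-15, 1.41e-15 and 1.42e-04). For posterior cells it was −0.60, −1.0 and 0.05 (adjusted p = 4.25e-04, 3.16e-06 and 0.88). This test pairs the classes of a library, and without the library term the anterior differences of −0.76, −0.78 and −0.38 did not pass (adjusted p = 0.665, 1.0 and 1.0), nor did the posterior ones in DMH1 and SU5402 (−0.60 and −0.98, adjusted p = 0.953 and 0.415).

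Partners and inhibitors of the myogenic factors changed in DMH1 and SU5402. The gene tcf12, whose product pairs with myogenic factors on DNA, had 251, 290, 356 and 332 scaled CPM in DMH1 and 195, 278, 407 and 373 in SU5402, against 99.2, 98.4, 89.8 and 67.6 in WT anterior cells, rising by 1.78 and 1.86 (edgeR adjusted p = 4.11e-07 and 2.87e-07). Inhibitors of such pairing fell: id1, a direct BMP target, had 346, 320, 282 and 397 scaled CPM in DMH1 and 246, 384, 305 and 451 in SU5402, against 1070, 1490, 1050 and 908 in WT. Its changes were −1.75 (SE 0.25, adjusted p = 2.52e-05) and −1.68 (SE 0.26, adjusted p = 5.17e-05). Myogenin gene myog fell by 0.81 in DMH1 and by 0.79 in SU5402 on the log2 scale (adjusted p = 0.00349 and 0.00594), and with thinned sums neither passed (−0.75 and −0.35, adjusted p = 0.0514 and 0.336). With the 1000-gene limit the SU5402 value was −0.77 (adjusted p = 0.0623). In notum-1, 0 of 17 myogenic regulators rose in anterior cells and myf5 was the only one that fell, where 14.4% of all genes rose and 9.55% fell.

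Few Hedgehog response genes changed in anterior cells, in DMH1 and SU5402 a share near or below that over all genes. Of 13 tested in anterior cells, gli1 rose in DMH1 and gli1 and boc in SU5402, where 15.8% and 15.3% of all genes rose, and 0 fell in either. The target gli1 had 102, 98.5, 123 and 123 scaled CPM in DMH1 and 78.9, 124, 141 and 113 in SU5402, against 66.5, 78.2, 58.8 and 81.2 in WT. DMH1 did not overlap WT, and 1 SU5402 library fell within the WT range. The rises were 0.66 (SE 0.17, edgeR adjusted p = 0.00364) and 0.74 (SE 0.17, adjusted p = 0.0019). The co-receptor boc rose by 0.99 in SU5402 (adjusted p = 0.00432), and by 0.74 (adjusted p = 0.0542) without SU3.

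In posterior cells gli1 had 84.4, 68.2, 106 and 75.3 scaled CPM in DMH1 and 65, 84.3, 146 and 106 in SU5402, against 51, 45.7, 49.6 and 53.1 in WT. Both groups lay above WT without overlap, with rises of 0.76 (SE 0.21, edgeR adjusted p = 0.00603) and 1.12 (SE 0.21, adjusted p = 1.78e-04). Of 12 Hedgehog response genes, 2 rose in DMH1 and 4 in SU5402, where 16.2% and 18.3% of all genes rose, and 0 fell. The others were dzip1 (0.71) in DMH1 and boc (0.89), kif7 (0.81) and gli2a (0.72) in SU5402. The dzip1 call was lost without DMH2, DMH3, DMH4, WT DJ1 or WT MG1, and that of kif7 without SU2, SU4, WT DJ2 or WT MG2. The smallest values were 0.52 for dzip1 (without WT DJ1) and 0.65 for kif7 (without WT DJ2). With DESeq2 and with no filter both calls were lost as well. In notum-1, gas1a and hhip fell in anterior cells (−0.66 and −0.51, edgeR adjusted p = 0.0019 and 0.024), where 9.55% of all genes fell. There gli1 did not pass in either class (−0.20 in anterior and 0.08 in posterior cells). The hhip call was lost without any of WNT_DJ2, WT DJ1, WT DJ2 and WT MG2, with −0.43 (adjusted p = 0.0566) without WNT_DJ2, and with thinned sums (−0.32, adjusted p = 0.379). In posterior cells gas1a fell by 0.52 on the log2 scale, and this call was lost without WNT_DJ2, WT DJ2 or WT MG2 (−0.41 to −0.49). Floor plate and hypochord markers summed to 282.1 to 330.8 scaled CPM in DMH1, 260 to 436.9 in SU5402, 143 to 196.9 in notum-1 and 184.7 to 225.7 in WT anterior cells, and their part in the result was not tested.

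Targets of the inhibited pathways were read in the same sums. In DMH1, 7 of 16 BMP response genes tested in anterior cells fell and 0 rose, with a median of −1.05, and 9 of 18 in posterior cells fell and 1 rose, with a median of −1.04, where 16.0% and 16.8% of all genes fell. Beside id1, the inhibitor gene id2a had 6.29, 6.48, 4.81 and 6.43 scaled CPM in DMH1, against 45.2, 73.4, 21.4 and 35.2 in WT anterior cells, a change of −2.90 (SE 0.32, edgeR adjusted p = 4.4e-07). In SU5402, 3 of 16 fell and 2 rose in anterior cells, where 16.2% of all genes fell and 15.3% rose. There id2a fell by 2.02 on the log2 scale (edgeR adjusted p = 5.09e-05), while szl (sizzled), a BMP feedback gene, rose by 3.78 (adjusted p = 2.2e-07). In notum-1 posterior cells id1 rose by 0.89 (adjusted p = 0.00688), with 0.43 (adjusted p = 0.17) under library totals.

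The FGF response list was mixed in SU5402. In anterior cells 2 of 15 genes fell and 1 rose, where 16.2% of all genes fell and 15.3% rose. The anterior counts were thus no larger than the shares over all genes. In posterior cells 5 of 14 fell and 2 rose, where 17.4% of all genes fell and 18.3% rose. The feedback phosphatase gene dusp6 had 41.8, 41.8, 49.6 and 21 scaled CPM in SU5402 and 110, 114, 164 and 110 in DMH1, against 56.5, 58.9, 98.4 and 92 in WT anterior cells. It fell in SU5402 by 1.04 on the log2 scale (edgeR adjusted p = 0.00621), and by 1.21 in posterior cells (adjusted p = 3.6e-04). With thinned sums neither passed, at −0.83 and −0.66 (adjusted p = 0.0531 and 0.0864). The feedback inhibitor gene spry4 did not pass in SU5402 (0.29 and 0.03) and rose in DMH1. It had 183, 193, 271 and 193 scaled CPM in DMH1, against 96.7, 120, 98.4 and 98.7 in WT anterior cells, a change of 1.02 (SE 0.17, adjusted p = 7.65e-05), and rose by 0.67 in posterior cells (adjusted p = 0.00119). In DMH1, 6 of 15 FGF response genes rose and 1 fell in anterior cells, where 15.8% of all genes rose and 16.0% fell.

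In notum-1 posterior cells 9 of 19 Wnt response genes fell, where 10.6% of all genes fell, and notum1a itself rose, with a median of −0.48. In anterior cells 4 of 18 fell, where 9.55% of all genes fell, and notum1a rose, with a median of −0.45. The secreted Wnt inhibitor gene dkk1b had 7.18, 2.79, 4.98 and 7.47 scaled CPM in notum-1 posterior cells, against 53.3, 60.6, 71.6 and 50.9 in WT, a change of −3.43 (SE 0.38, edgeR adjusted p = 8.4e-07). The feedback gene axin2 had 29.5, 18.9, 36.9 and 24.5 scaled CPM in notum-1, against 48.7, 48.8, 47.5 and 38.7 in WT, a change of −0.76 (SE 0.21, adjusted p = 0.00892). The feedback gene nkd1 fell by 0.90 on the log2 scale (adjusted p = 6.2e-04) and the mesodermal factor gene tbxta by 0.72 (adjusted p = 0.00247). With thinned sums axin2 and tbxta did not pass (−0.80 and −0.83, adjusted p = 0.248 and 0.0694).

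The Wnt response was not uniform in the other groups. In posterior cells axin2 rose in DMH1, with 67.9, 84.6, 82.8 and 77.4 scaled CPM in DMH1, and in SU5402, with 82.8, 60.5, 108 and 78.2, by 0.76 and 0.87 (edgeR adjusted p = 0.00297 and 0.00105). The same cells had less dkk1b, with changes of −2.64 and −1.74 (adjusted p = 2.22e-06 and 2.19e-04). The homeobox gene cdx4 fell in SU5402, with 644, 874, 684 and 910 scaled CPM in SU5402, against 1880, 2190, 1890 and 1830 in WT, a change of −1.31 (SE 0.18, adjusted p = 2.03e-06), and in anterior cells with a change of −1.3 (adjusted p = 6.52e-05).

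Among segmentation genes of posterior cells, some fell in each of the 3 groups. Of 33 presomitic and segmentation genes tested there, 11 fell and 3 rose in DMH1, 13 fell and 3 rose in SU5402 and 10 fell and 1 rose in notum-1, where 16.8, 17.4 and 10.6% of all genes fell. The clock gene her12 had 307, 283, 238 and 359 scaled CPM in DMH1, 195, 247, 203 and 305 in SU5402, 693, 675, 468 and 338 in notum-1 and 939, 1050, 900 and 899 in WT. No treated library reached the WT range, and the changes were −1.67, −1.97 and −0.80 (edgeR adjusted p = 2.5e-07, 4.02e-08 and 0.00249). The somite regulator tcf15 had 71.9, 84.6, 73.9 and 93.9 scaled CPM in DMH1, 88.7, 121, 54.7 and 89.8 in SU5402, 95, 156, 58.8 and 93.9 in notum-1 and 228, 255, 266 and 202 in WT. Its changes were −1.56, −1.48 and −1.22 (adjusted p = 9.09e-06, 3.12e-05 and 2.42e-04).

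The somite gene meox1 fell in notum-1 posterior cells and not in anterior ones. Posterior cells had 57.5, 23, 28.9 and 31 scaled CPM in notum-1, against 114, 136, 147 and 114 in WT (change −1.86, SE 0.23, edgeR adjusted p = 2.81e-06). Anterior cells had 460, 366, 490 and 327 in notum-1, against 279, 361, 321 and 281 in WT (0.40, adjusted p = 0.175). The difference of 2.24 between the classes passed the test (adjusted p = 0.00437), and relative to PSM, with 2520, 2720, 2080 and 1740 scaled CPM in notum-1 and 1660, 1740, 1730 and 1700 in WT, the posterior difference was −2.35 (adjusted p = 0.00103). Blood and endothelium markers in posterior cells ran from 21.64 to 57.79 scaled CPM in notum-1 and from 103.1 to 146.8 in WT. The part of free RNA in the posterior meox1 levels was not tested.

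In anterior cells msgn1 fell in notum-1, with 1190, 1600, 1170 and 1490 scaled CPM in notum-1, against 2310, 2540, 3130 and 2620 in WT. This was a change of −0.96 (SE 0.21, edgeR adjusted p = 0.00185), and the groups did not overlap. The repressor gene ripply1 fell in DMH1 and SU5402 anterior cells by 1.70 and 1.45 on the log2 scale (adjusted p = 0.00138 and 0.0056), and mespab fell by 1.59 and 1.66 (adjusted p = 0.00404 and 0.00418).

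Of 35 adhesion and migration genes tested in anterior cells, 9 rose and 2 fell in DMH1, 9 rose and 1 fell in SU5402, and 4 rose and 1 fell in notum-1, where 15.8, 15.3 and 14.4% of all genes rose. The fibronectin gene fn1b had 1010, 1270, 1250 and 1090 scaled CPM in DMH1 and 1080, 1150, 1380 and 1050 in SU5402, against 640, 659, 576 and 541 in WT, rising by 0.94 and 0.95 (edgeR adjusted p = 9.96e-05 and 9.74e-05). The chemokine receptor gene cxcr4b had 67.1, 44.1, 88.5 and 96 scaled CPM in DMH1, against 27.6, 29.8, 32.1 and 23 in WT anterior cells. It rose by 1.41 (SE 0.29, adjusted p = 6.54e-04) there, while PSM averaged 7.22 ± 2.46 in DMH1 and 12.3 ± 2.6 in WT (SD, n = 4 each). The difference from PSM was 2.28 (SE 0.28, adjusted p = 1.65e-06), and the difference from posterior cells was 0.92 (adjusted p = 0.00125).

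Cell cycle genes were read as S phase and G2/M lists, and the groups were not tested against each other. Of 27 S phase genes tested in anterior cells, 15 fell in DMH1 and 14 in SU5402, with 0 rising in either, and 4 fell and 2 rose in notum-1, where 16.0, 16.2 and 9.55% of all genes fell. Replication genes mcm3 and slbp were among them, with mcm3 at −1.48 in DMH1 and −1.14 in SU5402. Of 30 G2/M genes, 10 fell and 0 rose in notum-1, with a median of −0.70. In DMH1 6 fell and 1 rose, and in SU5402 4 fell and 1 rose. The falling shares in DMH1 and SU5402 were near those over all genes. The rising shares were below the 15.8% and 15.3% over all genes. In posterior cells 10 of 31 G2/M genes fell and 2 rose in notum-1, where 10.6% of all genes fell and 15.4% rose. There ccna2 (cyclin A) fell by 1.62 on the log2 scale (edgeR adjusted p = 9.81e-06), and nusap1, a spindle gene, fell in both classes. The spindle gene tpx2 had 8.92, 11.5, 16.8 and 14.5 scaled CPM in notum-1 anterior cells, against 25.1, 24.2, 31 and 40.6 in WT, while PSM had 77.4, 80.5, 89.8 and 82.2 in notum-1 and 75.9, 64.5, 65.5 and 63.8 in WT, a difference of −1.49 (edgeR adjusted p = 7.12e-04).

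Few genes passed a test of whether a treatment acted differently on adaxial cells than on PSM. The class by treatment test was passed in anterior cells by 154 of 9387 genes (1.64%) under DMH1, 53 (0.565%) under SU5402 and 174 (1.85%) under notum-1, and in posterior cells by 108 of 8551 (1.26%), 70 (0.819%) and 226 (2.64%). Leaving out 1 library moved these counts by over 1.5 times, to 80 in DMH1 anterior cells (without DMH4), 30 in SU5402 (without SU3) and 90 in notum-1 (without WT MG1), and to 61, 41 and 92 in posterior cells (without DMH4, WT DJ2 and WT MG1). A missed threshold does not show equal effects. With thinned sums 1 to 16 genes passed. Of the genes named here for a difference from PSM, the calls of cxcr4b, ldb3a, smyhc1, rem1, dusp6, mespbb, ripply2, acta1a and tpx2 were lost. So were those of myf5 in notum-1 anterior and DMH1 posterior cells, of tgfbi in notum-1 posterior cells and of mybphb in DMH1 anterior cells. The adaxial markers prdm1a and myod1 did not pass in either class, with prdm1a differing by 1.48 under DMH1 (adjusted p = 0.135), 0.72 under SU5402 (0.708) and 0.43 under notum-1 (0.776) in anterior cells. By direction, anterior cells were above PSM for 1.26% of genes and below for 0.384% under DMH1, 0.32 and 0.245% under SU5402 and 0.884 and 0.969% under notum-1, and for posterior cells the pairs were 0.667 and 0.596%, 0.316 and 0.503%, and 0.748 and 1.89%. Between anterior and posterior cells 75 of 8351 genes (0.898%) differed under DMH1, 16 (0.192%) under SU5402 and 43 (0.515%) under notum-1, with 0.683, 0.0718 and 0.192% above and 0.216, 0.12 and 0.323% below.

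Among the largest differences from PSM, several came from the PSM side. In DMH1 the Z-disc gene ldb3a had 177, 229, 184 and 205 scaled CPM in anterior cells, against 141, 136, 88.8 and 89.3 in WT, while PSM had 0.66, 0.76, 0.336 and 0.652 in DMH1 and 2.33, 2.47, 3.37 and 2.48 in WT. The difference of 2.93 (edgeR adjusted p = 6.46e-06) thus rests largely on PSM levels that are low in both groups. For smyhc1 the differences were 1.93 in DMH1 and 1.70 in notum-1 (edgeR adjusted p = 0.0011 and 0.00342). PSM levels of smyhc1 ranged from 0.841 to 1.3 scaled CPM in DMH1, 1.34 to 4.65 in notum-1 and 1.24 to 4.21 in WT. The DMH1 difference again rests largely on low PSM levels. In WT, PSM held 1.3 to 4.52 CPM of smyhc1, no more than epidermis 1, which should lack it, at 2.45 to 5.89 CPM. Epidermis 1 held 0.211 to 0.949 CPM in DMH1. In DMH1, PSM held 0.879 to 1.42 CPM, above epidermis 1 in each library. These DMH1 levels rest on 4 to 10 UMIs a library in PSM and 1 to 4 in epidermis 1. The part of free RNA in the DMH1 difference was not tested. In notum-1 the PSM levels overlapped WT, and the rise in anterior cells given above was the larger part of the difference. By DESeq2 the smyhc1 differences were 1.91 in DMH1 and 1.5 in notum-1 and did not pass (adjusted p = 0.0992 and 0.166). Without WT MG1 the notum-1 value was 1.37 (edgeR adjusted p = 0.0533). The extracellular matrix gene tgfbi moved in opposite directions in notum-1, with 43.5, 42.7, 47.9 and 61.9 scaled CPM in notum-1 anterior cells, against 100, 88.7, 67.4 and 94.7 in WT, and 96.8, 63.5, 107 and 180 in notum-1 PSM, against 49.4, 49.1, 40.8 and 50.8 in WT (difference −1.97, adjusted p = 4.24e-13).

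In SU5402 gapdhs, a glycolysis gene, had 37.1, 24.1, 25.7 and 48.4 scaled CPM in anterior cells, against 21.3, 17.7, 22.5 and 13.5 in WT, and PSM had 14.3, 6.94, 7.77 and 8.63 in SU5402, against 20.9, 24.1, 19.4 and 20.4 in WT (difference 2.27, edgeR adjusted p = 5.88e-08). The GTPase gene rem1 was alike in SU5402 and WT anterior cells and higher in SU5402 PSM, with differences of −1.14 for anterior and −1.48 for posterior cells (adjusted p = 1.07e-04 and 3.03e-04).

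Posterior cells had other leading genes. The neural and progenitor factor gene sox2 had 12.5, 18.9, 19.7 and 11.7 scaled CPM in DMH1 posterior cells and 12.7, 15.8, 12.1 and 12.2 in WT, while PSM had 2.86, 2.53, 2.52 and 0.652 in DMH1, against 11.6, 9.28, 13.5 and 12.4 in WT (difference 2.72, edgeR adjusted p = 8.35e-06). Posterior levels were alike in both groups, and the PSM level was the lower one in DMH1. Epidermis 1 held 17.04 to 25.67 CPM of myod1 in WT, 3.79 to 8.53 in DMH1 and 1.25 to 6.57 in notum-1. Blood and endothelium markers in anterior cells ran from 105.7 to 118.7 scaled CPM in WT. They ran from 23.58 to 52.94 in DMH1 and from 19.5 to 52.25 in notum-1. SU5402 libraries held 29.21 to 106.8, with the highest inside the WT range. For smyhc1 in epidermis 1, notum-1 overlapped WT. The part of free RNA in the low levels of sox2, ldb3a, mespbb and ripply2 was not tested. For dusp6 the DMH1 posterior difference was −1.03 (adjusted p = 2.34e-06): posterior cells had 123, 123, 143 and 115 scaled CPM in DMH1 and 110, 101, 121 and 144 in WT, and PSM averaged 132 ± 29 in DMH1 and 61.1 ± 8.2 in WT (SD, n = 4 each). In notum-1, mespbb had 0.798, 0, 0 and 1.07 scaled CPM in posterior cells, against 11.6, 9.45, 12.8 and 9.96 in WT, and ripply2 had 7.18, 2.79, 0.996 and 4.27, against 13.9, 11, 22 and 11.1. PSM kept both, with mespbb at 124, 313, 74 and 146 and ripply2 at 200, 193, 177 and 121 scaled CPM in notum-1, and the differences were −3.75 and −2.16 (adjusted p = 1.46e-04 and 0.00203). By DESeq2 the mespbb value was −3.62 and did not pass (adjusted p = 0.104), and with thinned sums the values were −2.27 and −0.91 (edgeR adjusted p = 0.677 and 0.802). Actin acta1a rose beyond PSM in notum-1 posterior cells, with a difference of 1.92 (adjusted p = 0.00406).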

How the data were processed

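The authors deposited raw UMI counts per gene and cell and a cell table with library, class, cell cycle call and a mitochondrial percent per cell. Cell Ranger and GRCz11 are named in the submitters' processing notes. All deposited cells were used. Libraries named WNT were taken as notum-1, the remaining group, and 12 of 16 library names gave a group but no labelled sample. Counts were summed per class and library. edgeR 4.0.16 (R 4.3.3; quasi-likelihood, TMM, filterByExpr) was fitted to all 16 libraries with 12 residual degrees of freedom, and the class by treatment fit had a library term. The code was tested on simulated data. DESeq2 1.42.0, other scalings, filters, thinned sums and leaving out libraries were alternatives. For shares, exact permutation tests were two-sided (70 assignments). Doublets were not called and free RNA was not corrected. Python 3.11.15 was used for other steps.

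The members and the 25 gene lists (587 genes, 552 in the matrix) were chosen with earlier results of these data known. Genes named are the 3 markers, list genes (at most 5 per list and treatment by adjusted p, plus slow muscle, myogenic and Hedgehog genes), the 12 highest and lowest ratios in WT with at least 50 CPM, and the 4 highest and lowest class by treatment differences. The genes named from the smyhc1 split, the anterior against posterior differences, cdkn1ca, ckma, actc1a, ripply1, mespab, szl and tpx2 were chosen after their values were seen. Of the Hedgehog response list, 1 gene is not reported here and is left out of its counts. No class is named somite, so that planned comparison was not run. UMI counts of 1 cell are molecules, and depth is given as UMIs per library.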

Additional observations from a re-analysis of the deposited data

Results flagged for a closer look

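In 14 of 172 sets of 4 libraries checked, 1 library stood apart from the others by Dixon's test, which chance gives in about 1 of 20 sets. In anterior cells these were library DMH3 for spry4 (271 scaled CPM) and dusp6 (164), DMH0 for axin2 (22.5), SU3 for mybphb (125), WNT_MG2 for acta1a (3640), WNT_DJ1 for desma (643) and WNT_DJ2 for id1 (2300), and in WT DJ2 for prdm1a (269) and spry4 (120) and MG2 for axin2 (24.3). In posterior cells they were SU3 for prdm1a (192), SU2 for myf5 (1150), and in WT MG2 for axin2 (38.7) and DJ2 for cdx4 (2190).

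The effect of a treatment differed between anterior adaxial cells and PSM for 154 genes in DMH1, 53 genes under SU5402 and 174 genes under notum-1 (edgeR, class by treatment test). In DMH1 the log2 differences were 2.93 for ldb3a, 2.28 for cxcr4b, 1.93 for smyhc1, 1.74 for sox2, 1.06 for mybphb and −0.77 for myf5. Those of ldb3a, smyhc1 and sox2 rest largely on low PSM levels. Anterior cells had 0 to 8.65 scaled CPM of sox2 in DMH1 and 6.76 to 15 in WT. PSM had 0.652 to 2.86 in DMH1 and 9.28 to 13.5 in WT. The gene mybphb fell in DMH1 anterior cells, and its positive difference means a lower fold change in PSM. The sox2 call was lost without DMH0, DMH3 or DMH4, with values of 1.45 to 1.75. In SU5402 they were 2.27 for gapdhs, −1.14 for rem1 and −0.80 for myf5. In notum-1 they were 1.70 for smyhc1, −0.37 for myf5, −0.66 for ripply2, −1.49 for tpx2 and −1.97 for tgfbi. The ripply2 call was lost without WT DJ1 or WT DJ2 (−0.67 and −0.41).

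Between posterior adaxial cells and PSM the counts were 108 genes in DMH1, 70 genes under SU5402 and 226 genes under notum-1. The differences were 2.72 for sox2, −1.03 for dusp6 and −0.60 for myf5 in DMH1, and −1.48 for rem1 and −1.0 for myf5 in SU5402. In notum-1 they were 1.92 for acta1a, −0.99 for tpx2, −2.07 for tgfbi, −2.16 for ripply2, −2.35 for meox1 and −3.75 for mespbb. The tgfbi call was lost without WT MG1 (−1.92) and the tpx2 call without any of 6 libraries (−0.83 to −1.07).

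Between anterior and posterior adaxial cells the effect differed for 75 genes in DMH1, 16 genes under SU5402 and 43 genes under notum-1, among them mybphb (1.49) and cxcr4b (0.92) in DMH1 and meox1 (2.24) in notum-1.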

How the results depend on the processing

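Counts of called genes moved with depth and cell limits. With sums thinned to a common depth, 743, 858 and 451 genes were called in anterior and 553, 690 and 383 in posterior cells (DMH1, SU5402, notum-1). With cells of at least 1500 genes and at most 3% mitochondrial UMIs, a limit that leaves some groups with 1 library whose spread is assumed to be like that of the other groups, the counts were 7, 33 and 80 and then 91, 37 and 46. With library totals notum-1 had 3046 and 2963. With at least 1000 genes and at most 5%, chosen after seeing the data, 2073 of 2457, 1877 of 2439 and 1648 of 1851 calls in anterior cells were made again with the same sign.

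Genes whose effect differed from PSM depended on the library term. Without this replicate block there were 13, 0 and 2 in anterior and 5, 1 and 3 in posterior cells. For SU5402 anterior cells, where that count was 0, DESeq2 gave 32 and edgeR with the library term gave 802 at an unadjusted p under 0.05. Without a filter there were 278 (DMH1) and 104 (SU5402) in anterior and 168 and 121 in posterior cells. Thinned sums gave 4, 5 and 7 and then 7, 1 and 16, the 1500-gene limit gave 5, 3 and 50 and then 4, 10 and 37, and DESeq2 gave 62, 29 and 114 in posterior cells and, between the adaxial classes, 10 for notum-1. Leaving out 1 library gave 80 to 148, 30 to 84 and 90 to 197 in anterior and 61 to 84, 41 to 95 and 92 to 222 in posterior cells.

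Among single genes the direction turned for myod1 in DMH1 anterior cells with thinned sums (0.15), for smyhc1 with the 1000-gene limit in DMH1 (−0.25) and SU5402 (−0.091), and for the DMH1 difference of mybphb from PSM with thinned sums (−0.088). With the 1500-gene limit it turned for acta1a in DMH1 (−0.056), for tcf15, axin2 and ripply1 in SU5402 anterior cells (0.81, −0.29 and 0.58), for mybphb and kif7 in SU5402 posterior cells (0.30 and −0.028) and for myod1 and prdm1a in notum-1 anterior cells (0.29 and 0.13). With library totals myod1 and prdm1a in notum-1 posterior cells were at −0.18 and −0.17. Leaving out 1 library gave −0.33 to 0.24 for smyhc1 in SU5402, −0.15 to 0.00301 for myod1 and −0.22 to 0.031 for prdm1a in notum-1 anterior cells. The cause was not tested.

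Of the shares, the anterior one differed by 0.56 points for SU5402 among mesodermal cells, and by −0.30 to 0.25 on leaving out 1 library. With the 1500-gene limit DMH1 differed by −0.24 (anterior), 0.027 (posterior) and −11.4 points (anterior of both classes), and that limit gave no value for the last measure in SU5402. The DMH1 differences under it did not pass and rest on few cells, with 1 anterior and 3 posterior cells in DMH2. With the 1000-gene limit the differences were −0.58 (DMH1), −0.90 (SU5402) and 2.07 (notum-1) for anterior cells, −1.37 (DMH1) and −1.58 (SU5402) for posterior cells, and 7.71 (DMH1) and 13.5 (notum-1) for anterior of both, with adjusted exact permutation p of 0.0429 for all but the first. That limit kept a smaller part of the adaxial cells in every DMH1 and SU5402 library than in any WT library. Without thinning, cells with a myod1 UMI differed by 4.85 points in DMH1 anterior and 4.99 in notum-1 posterior cells, and those with prdm1a by 3.24 in notum-1 posterior cells. On leaving out 1 library, ranges were −0.90 to 4.04 for posterior myod1 in DMH1, −2.35 to 5.82 for anterior smyhc1 in SU5402 and −1.88 to 0.40 for posterior prdm1a in notum-1.

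In WT with the 1500-gene limit and genes of at least 50 CPM, 53 were over 2-fold higher and 4 lower in anterior cells than PSM (145 and 50 without it), 24 were lower in posterior cells than PSM (41), and 43 higher and 4 lower in anterior than posterior cells (101 and 28). WT and notum-1 libraries share name endings, which no label explains. Deviations of libraries with the same ending correlated at 0.11, 0.081, −0.077 and 0.10 in anterior and 0.048, 0.15, −0.090 and 0.10 in posterior cells (DJ1, DJ2, MG1, MG2), so not every pair was over 0.1 and the libraries were not taken as paired. The highest correlation with another ending was 0.080, 0.053, 0.089 and 0.040 in anterior and 0.041, 0.018, 0.083 and 0.14 in posterior cells. In PSM the same endings gave 0.11, 0.23, −0.076 and 0.20, beside 0.079, 0.025, 0.093 and 0.21. The same ending was the higher for some libraries and not for others, so these values do not settle whether libraries were paired. A replicate block of these endings gave 1631 and 1800 calls beside 1851 and 1892. No paired analysis was possible for DMH1 and SU5402 against WT because their library names share no endings with WT. Depth limits SU1 most, with 62 and 50 adaxial cells.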
